A study of Mus musculus with 12 samples.

Results

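The cytosolic heat shock chaperones described here are the transcription factor gene *Hsf1* and 9 chaperone or co-chaperone genes of the heat shock response: *Hsp90aa1*, *Hsp90ab1*, *Hspa8*, *Hspa1b*, *Hsph1*, *Dnaja1*, *Dnajb1*, *Hspb1* and *Bag3*. They were listed by name, with earlier results of these data known, and all 10 were found by symbol among the 10697 genes of the deposited table. The cells were primary mouse adult fibroblasts (MAFs), wild type and derived from biopsies of C57BL6/j mice. They received 100 µM thymol, a phenolic monoterpene of thyme and oregano, for 24 h, or an equal volume of the solvent DMSO, with 6 libraries in each group. Both groups shared the genotype, the medium and the solvent, and the labels give neither the age of the mice nor the number of animals or separate cultures behind the 12 libraries. The p-values therefore measure the spread between these libraries, which may be technical.

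In the cytosol, newly made and damaged proteins are held and folded by chaperones. HSP70 proteins bind exposed stretches of their clients, J-domain proteins deliver the clients and trigger ATP hydrolysis, nucleotide exchange factors release them, and HSP90 completes the maturation of many kinases and steroid receptors. Small heat shock proteins bind unfolding proteins without ATP. When unfolded proteins accumulate, HSF1 is released from chaperones, forms trimers and switches on the genes of inducible chaperones through heat shock elements, which are inverted repeats of the 5-base unit nGAAn. Fibroblasts carry out this response to heat, oxidants and proteasome inhibitors within hours.

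After 24 h with thymol, no member rose past the threshold, and 1 fell. *Hspb1*, the gene of the small heat shock protein HSP25 (HSP27 in humans), was lower with thymol by a log2 fold change of -0.27 ± 0.073 (SE), which is 0.832 times the DMSO level. In limma, 0 of the 10 members were higher and 1 was lower at an adjusted p of 0.05, against 0.654% of all 10697 genes called higher, 1.57% called lower and 2.22% called in all. At an unadjusted p of 0.05, 2 of 10 members passed, *Dnaja1* higher and *Hspb1* lower, against 11.8% of all genes, and voom on the recovered reads also called 0 members higher and 1 lower. The inducible *Hspa1b*, the marker usually read for this response, had a log2 fold change of -0.24 and did not pass. Values are log2 CPM (reads scaled to a common library total) throughout, and each fold change is the mean of 6 thymol libraries minus the mean of 6 DMSO libraries.

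**Figure D1:**
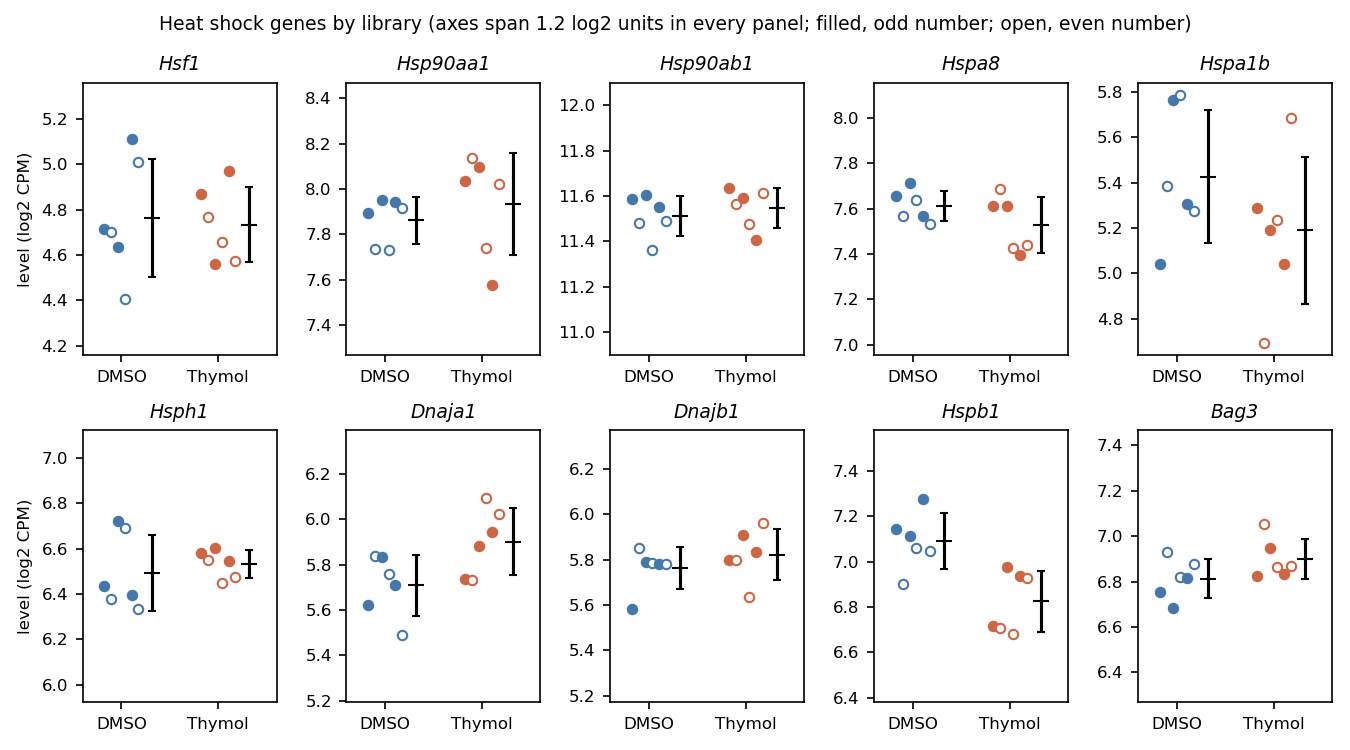
Level of each of the 10 members in every library, in log2 CPM, with 1 panel per gene, the 6 DMSO and 6 thymol libraries as points, and bars for the mean ± SD. All panels span the same number of log2 units. The groups overlap in every panel, and the thymol points of *Hspb1* lie lowest against their controls.

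The promoters of the members show where heat shock elements lie. RefSeq promoters (GRCm38.p6, the 250 bases before each listed transcription start) were searched on both strands for 2 adjoining units, GAANNTTC or TTCNNGAA, and for 3, GAANNTTCNNGAA or TTCNNGAANNTTC. Each 3-unit form contains both 2-unit forms. Promoters were matched for 6 of the 10 members, *Hspa1b*, *Hsph1*, *Dnaja1*, *Dnajb1*, *Hspb1* and *Bag3*, and those of *Hsf1*, *Hsp90aa1*, *Hsp90ab1* and *Hspa8* were not analysed here. The 2-unit form was found in 4 of these 6 genes and in 5 of their 10 listed starts, against 12.8% of all 32851 starts. The 3-unit form was found in 0 of the 10 starts and in 0.466% of all starts. The windows are shown because they hold the letters that HSF1 is known to recognise, with the 2-unit match in capitals. *Hspb1* has 2 matches, 117 and 97 bases before its start, and the others have 1 each.
Hspa1b, chr17:34959309-34959368, minus strand: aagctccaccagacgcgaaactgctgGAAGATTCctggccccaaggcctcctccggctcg
Hsph1, chr5:149636351-149636380, minus strand: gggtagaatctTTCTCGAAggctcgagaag
Dnaja1, chr4:40722333-40722362, plus strand: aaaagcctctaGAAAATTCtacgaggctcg
Hspb1, chr5:135887786-135887845, plus strand: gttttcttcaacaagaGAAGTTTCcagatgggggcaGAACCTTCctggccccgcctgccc
The match lay 104 bases before the start in *Hspa1b*, and 33 or 54 bases in *Hsph1*, depending on which of its starts is used. In *Dnaja1* it lay 124 bases before 1 of the listed starts, and the other listed starts of *Dnaja1* had no match. A match describes letters in the sequence and is not a measured binding site, and its lack in *Dnajb1* and *Bag3* covers only these 250 bases. Only exact, adjoining units were counted. Elements with a changed base or a gap were not searched for, in these genes or beside the matches shown.

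Reads recovered from the table numbered 5435985 to 9049796 per library, and the depths of the groups differed by less than their spread (p = 0.396, two-sided, exact permutation test). Against markers of the labelled cell type, the table held 12 of 14 for fibroblasts, whose summed level was 11968 to 12639 CPM in the thymol libraries and 12643 to 13972 CPM in the DMSO libraries. *Lum* and *Fap* were not listed. All 14 macrophage markers were in the table as well, at 19117 to 22853 CPM with thymol and 18934 to 20919 CPM with DMSO. This sum mostly follows *Lyz2*, at a mean of 13.61 log2 CPM with DMSO and 13.69 with thymol. The next highest of these markers, *C1qa*, stood at 10.48 and 10.45. The sums of different lists are therefore not compared with each other here. Among other cell types, 1 of 6 skeletal muscle markers was listed (*Acta1*, at 87.2 to 113 CPM with thymol and 126 to 150 with DMSO), 2 of 6 endothelial markers and 1 of 4 Schwann cell markers, while no epithelial, adipocyte or lymphocyte marker was listed. The summed fibroblast level and *Acta1* lay lower in every thymol library than in every DMSO library. Of the 12 fibroblast markers, 4 had a positive and 8 a negative log2 fold change, and 2 passed as lower, *Col1a1* and *Col3a1*. Without these 2 the sum of the other 10 overlapped between the groups, at 8350 to 9036 CPM with thymol and 8397 to 9163 CPM with DMSO. Of the macrophage markers, *Mpeg1* passed as higher, at 0.21, and *Itgam* as lower, at -0.31 (limma adjusted p = 0.0208 and 0.000705). The other macrophage markers did not pass. Their log2 fold changes lay on both sides of 0, among them *Cd68* at 0.18 and *Mrc1* at -0.20. In bulk RNA of this kind, fewer cells of a type and less RNA per cell cannot be told apart, and the part of cell makeup in the differences below was not tested.

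*Hsf1* (chromosome 15, 76477422 to 76501913, plus strand), the regulator itself, was the member with the lowest level. It ranged from 4.40 to 5.11 log2 CPM in DMSO libraries, with a median of 4.71, and from 4.56 to 4.97 with thymol, with a median of 4.71. The thymol values lay inside the range of the DMSO values. Its log2 fold change was -0.03 ± 0.13 (SE, 95% interval -0.30 to 0.24, limma adjusted p = 0.972). The reads behind it averaged 192 with DMSO and 175 with thymol. As background, HSF1 is switched on largely by changes of the protein, which the transcript level does not measure.

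The 2 cytosolic HSP90 genes had the highest levels of the members. *Hsp90ab1* (chromosome 17, 45567775 to 45573271, minus strand), the constitutive form, ranged from 11.36 to 11.60 log2 CPM in DMSO libraries (median 11.52) and from 11.40 to 11.63 with thymol (median 11.58). It ranked 25 of 10697 genes by mean level, and its log2 fold change was 0.04 ± 0.047 (SE, 95% interval -0.06 to 0.13, limma adjusted p = 0.855). *Hsp90aa1* (chromosome 12, 110690605 to 110702728, minus strand), the more stress-responsive form, ranged from 7.73 to 7.95 log2 CPM in DMSO libraries (median 7.90) and from 7.57 to 8.14 with thymol (median 8.03). Of its 6 thymol values, 4 lay above every DMSO value and 1 lay below every DMSO value. The log2 fold change of *Hsp90aa1* was 0.07 ± 0.071 (SE, 95% interval -0.07 to 0.21, limma adjusted p = 0.783). For both genes the sign depended on the libraries used, with -0.037 for *Hsp90ab1* and -0.027 for *Hsp90aa1* in odd-numbered libraries only, and 0.11 and 0.17 in even-numbered ones.

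Within a library, the constitutive form exceeded the stress-responsive form by 3.65 ± 0.061 log2 units in DMSO libraries and by 3.61 ± 0.15 in thymol libraries (SD, n = 6 each). The difference spanned 3.57 to 3.74 in the DMSO libraries and 3.43 to 3.83 in the thymol libraries, so that the 2 ranges overlapped. *Hsp90ab1* alone gave 75.6 ± 1.06% of the reads of the 10 members with DMSO and 76.2 ± 0.614% with thymol. The 10 members together gave 0.387 ± 0.017% of all recovered reads with DMSO and 0.393 ± 0.021% with thymol.

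Among the HSP70 genes, *Hspa8* (chromosome 9, 40800984 to 40810087, plus strand) encodes the constitutive HSC70, which also serves chaperone-mediated autophagy. It ranged from 7.53 to 7.71 log2 CPM in DMSO libraries (median 7.60) and from 7.39 to 7.69 with thymol (median 7.52). The thymol values reached lower, 3 of 6 lying under every DMSO value, but the log2 fold change of -0.08 ± 0.063 did not pass (SE, 95% interval -0.21 to 0.04, limma adjusted p = 0.687). *Hsph1* (chromosome 5, 149614287 to 149636376, minus strand) encodes HSP105, an exchange factor of HSP70 that is itself heat inducible. It ranged from 6.33 to 6.72 log2 CPM with DMSO (median 6.42) and from 6.45 to 6.60 with thymol (median 6.55), and all of its thymol values lay within the DMSO range. Its log2 fold change was 0.04 ± 0.079 (SE, 95% interval -0.12 to 0.20, limma adjusted p = 0.922).

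*Hspa1b* (chromosome 17, 34956436 to 34959238, minus strand) encodes an inducible HSP70 and is the usual readout of HSF1 activity. It ranged from 5.04 to 5.78 log2 CPM in DMSO libraries (median 5.34) and from 4.69 to 5.68 with thymol (median 5.21). The groups overlapped widely, with 1 of 6 thymol values above the DMSO median. This gave a log2 fold change of -0.24 ± 0.13 (SE, 95% interval -0.49 to 0.02, limma adjusted p = 0.480). The upper end of that interval is 1.01-fold the DMSO level. Leaving out 1 library moved the log2 fold change between -0.34, without thymol replicate 6, and -0.14, without thymol replicate 2, with limma adjusted p-values from 0.255 to 0.791.

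*Hspa1b* has a near copy, *Hspa1a* (chromosome 17, 34969190 to 34972156, minus strand), which lies 9951 bases away and encodes the same kind of inducible HSP70. The promoters of the pair are identical at 247 of 250 bases (98.8%), and the window printed for *Hspa1b* recurs in that of *Hspa1a* at chr17:34972227-34972286. Over the last 300 bases of the transcripts, where QuantSeq reads start, 0 of the 65-base stretches of either gene were shared with another gene, so the reads of the pair could be told apart there. *Hspa1a* had 96, 85, 334, 74, 60 and 79 recovered reads in DMSO replicates 1 to 6, and 45, 46, 66, 71, 101 and 53 in thymol replicates 1 to 6. DMSO replicate 3 stood apart, with 43.5% of the pair's reads in *Hspa1a*. The log2 fold change of *Hspa1a* was -0.56 ± 0.23 with all libraries (SE, limma adjusted p = 0.286) and -0.25 without DMSO replicate 3 (limma adjusted p = 0.731). Summing the reads of both genes, an alternative chosen after the data were seen, gave -0.33 (limma adjusted p = 0.209), and -0.19 without DMSO replicate 3 (limma adjusted p = 0.574).

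**Figure D2:**
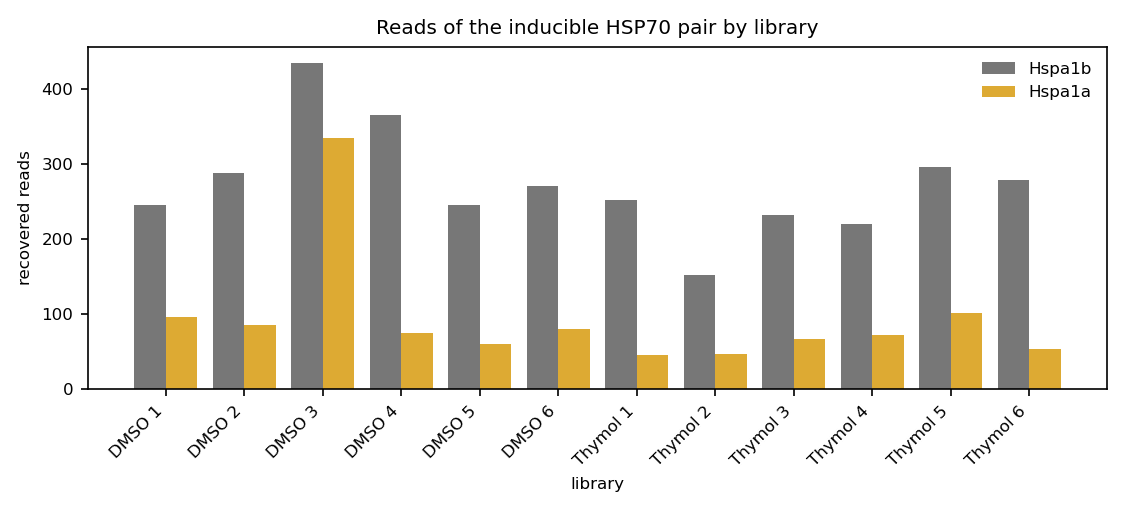
Recovered reads of *Hspa1b* and *Hspa1a* in each of the 12 libraries, not scaled for depth. The bars are single libraries without error, and DMSO replicate 3 holds 434 reads of *Hspa1b* and 334 of *Hspa1a*, the most of any library for both genes.

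The J-domain co-chaperones deliver clients to HSP70. *Dnaja1* (chromosome 4, 40722150 to 40737149, plus strand), a partner of HSC70 in folding and in mitochondrial import, ranged from 5.49 to 5.84 log2 CPM in DMSO libraries (median 5.73) and from 5.73 to 6.10 with thymol (median 5.91). With thymol, 4 of 6 values lay above every DMSO value and 5 of 6 above the DMSO median. This gave a log2 fold change of 0.19 ± 0.094 (SE, 95% interval 0.0055 to 0.38, limma adjusted p = 0.403), whose unadjusted p lay under 0.05. *Dnajb1* (chromosome 8, 83608193 to 83612653, plus strand), the heat-inducible HSP40 that helps to switch HSF1 off again, ranged from 5.58 to 5.85 log2 CPM with DMSO (median 5.78) and from 5.63 to 5.96 with thymol (median 5.82). Its lowest DMSO value, that of replicate 1, lay apart from the other DMSO values. The log2 fold change of *Dnajb1* was 0.06 ± 0.091 (SE, 95% interval -0.12 to 0.24, limma adjusted p = 0.885), and in even-numbered libraries only it was -0.0084.

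*Bag3* (chromosome 7, 128523616 to 128546981, plus strand) encodes an exchange factor that links HSP70 and small heat shock proteins to selective autophagy of misfolded proteins, and it is a target of HSF1. It ranged from 6.68 to 6.93 log2 CPM in DMSO libraries (median 6.82) and from 6.82 to 7.05 with thymol (median 6.87). All 6 thymol values were above the DMSO median, but only 2 were above every DMSO value. Between the groups the log2 fold change was 0.09 ± 0.070 (SE, 95% interval -0.06 to 0.23, limma adjusted p = 0.720), and the upper end of the interval is 1.17-fold.

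*Hspb1* (chromosome 5, 135887919 to 135889563, plus strand) encodes an ATP-independent chaperone that also binds and steadies actin filaments. It ranged from 6.90 to 7.28 log2 CPM in DMSO libraries (median 7.09) and from 6.68 to 6.97 with thymol (median 6.82). All 6 thymol values lay below the DMSO median and 3 lay below every DMSO value, so the groups touched only in the upper thymol and lower DMSO values. Its mean was 7.09 ± 0.12 in DMSO libraries and 6.82 ± 0.14 in thymol libraries (SD, n = 6 each). The difference of -0.27 ± 0.073 had a 95% interval of -0.41 to -0.12 and a limma adjusted p = 0.0320. On the linear scale thymol libraries held 0.832 times the DMSO level (95% interval 0.752 to 0.921), with 963 reads on average in a DMSO library and 744 in a thymol library.

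The call for *Hspb1* lay close to the threshold. Its direction held in every alternative run, though some alternatives, such as no variance trend or the replicate block, cannot change the fold change. Leaving out 1 library at a time gave -0.30 to -0.23, and 6 of the 12 such fits lost the call: without DMSO replicates 1, 3 and 5 the limma adjusted p was 0.0779, 0.0629 and 0.130, and without thymol replicates 1, 2 and 4 it was 0.0640, 0.0989 and 0.0881. Without limma's mean-variance trend the adjusted p was 0.216. In odd-numbered libraries only, the log2 fold change was -0.30, and in even-numbered ones -0.23, neither of which passed with 3 libraries per group (limma adjusted p = 0.238 and 0.378). Of its 65-base stretches near the transcript end, 13.9% also occurred in the pseudogene *Hsp25-ps1*.

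**Figure D3:**
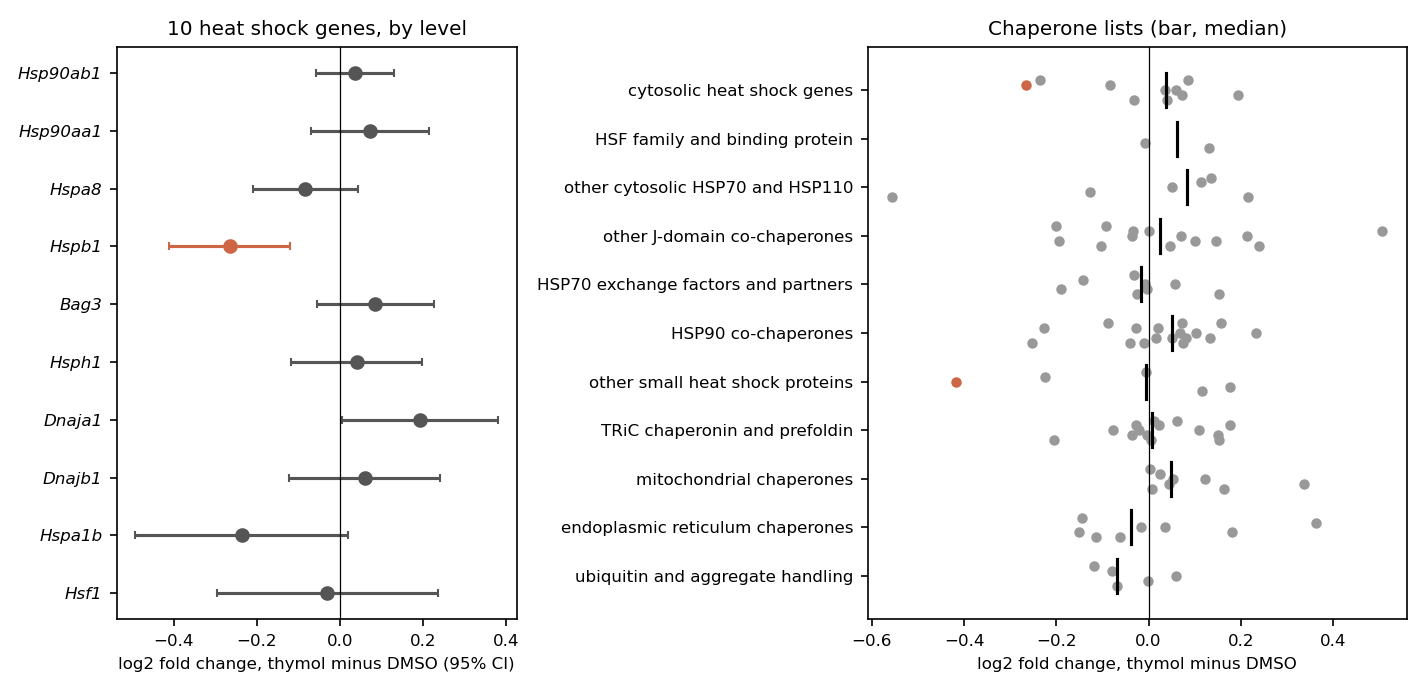
Left, log2 fold change, thymol minus DMSO, of the 10 members, with bars for the 95% interval of each gene. Right, log2 fold change of every gene found in the table, for the members and for each other chaperone list. These points carry no interval, and the bar of each list is its median. The intervals are not adjusted for the number of genes. *Hspb1* at -0.27 and *Hspb6* at -0.42 are the genes past the adjusted threshold, and the intervals of 8 members include 0.

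Over the 10 members, 6 had a positive and 4 a negative log2 fold change, the median was 0.04, and the median absolute value was 0.078, against 0.0026 and 0.098 over all 10697 genes. For these 12 libraries, the intervals limit what could have been missed. They rest on the spread between the libraries, which may be technical. The highest upper end among the 10 was 0.38, or 1.30-fold, for *Dnaja1*. For the stress-inducible *Hspa1b*, *Hsph1*, *Dnajb1* and *Bag3*, the upper ends with all 12 libraries were 1.01-fold, 1.15-fold, 1.18-fold and 1.17-fold. The fold change of *Hspa1b* behind the first of these moved with single libraries, as given above. Its interval also depends on limma's mean-variance trend. Without the trend the unadjusted limma p of *Hspa1b* was 0.177, against 0.0705 with it, at the same fold change. The upper end would then lie higher than 1.01-fold. In 0 of the 10 members did all thymol values lie on one side of all DMSO values, which occurred in 1.68% of all genes. These limits concern RNA at 24 h and say nothing of earlier times, which were not sampled here.

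The members spanned a wide range of levels. QuantSeq takes about 1 read per transcript, so that levels were compared between genes without a length correction. The levels of *Hspa8*, *Dnaja1*, *Hsp90aa1* and *Hspb1* carry a further uncertainty, since stretches of their transcript ends also occur in other genes, and their places in the order are given with that limit. The mean level with DMSO was 2924 CPM for *Hsp90ab1*, 233 CPM for *Hsp90aa1*, 196 CPM for *Hspa8*, 137 CPM for *Hspb1*, 113 CPM for *Bag3*, 90.5 CPM for *Hsph1*, 54.3 CPM for *Dnajb1*, 52.5 CPM for *Dnaja1*, 43.7 CPM for *Hspa1b* and 27.5 CPM for *Hsf1*. Neighbours in this order whose ranges overlapped were *Hspb1* and *Bag3*, *Bag3* and *Hsph1*, *Dnajb1* and *Dnaja1*, *Dnaja1* and *Hspa1b*, and *Hspa1b* and *Hsf1*. *Hspb1* exceeded *Bag3* in 5 of 6 DMSO libraries and in 3 of 6 thymol libraries. *Dnajb1* exceeded *Dnaja1* in 4 of 6 DMSO libraries and in 3 of 6 thymol libraries.

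The spread between libraries of a group exceeded the counting error of the reads in every member. The within-group SD was 0.31 log2 units for *Hspa1b*, the most variable member, where counting alone gives 0.090. For *Hsp90ab1* the SD was 0.089 against a counting error of 0.010, a ratio of 8.68. *Dnajb1* came closest to counting error, with a ratio of 1.37. *Hsf1*, the member with the fewest reads, had an SD of 0.22 and a ratio of 1.99.

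The HSP90 genes were the pair whose levels moved together from library to library. Over 12 libraries the levels of *Hsp90aa1* and *Hsp90ab1* had a Pearson r of 0.824 (permutation p = 0.00102, adjusted over 45 pairs p = 0.0459) and a Spearman rho of 0.804 (permutation p = 0.00244, adjusted p = 0.110). Without thymol replicates 2 and 5, the libraries farthest from the median of *Hsp90aa1*, r was 0.835. Within the 6 DMSO libraries r was 0.807 (exact permutation p = 0.0361), and within the 6 thymol libraries it was 0.904 (exact permutation p = 0.0319), before adjustment. Of the 45 pairs, 3 within DMSO and 4 within thymol had such a p under 0.05, the HSP90 pair being the one in both groups, and after adjustment over 45 pairs the smallest exact permutation p was 0.542 within DMSO and 0.479 within thymol. Of the 45 pairs of members, 22 had a positive and 23 a negative r, with a median of -0.017. They ran from -0.558 for *Hspa1b* and *Bag3* to 0.824 for the HSP90 pair, and 1 pair passed the adjustment by Pearson's r and 0 by Spearman's rho. The points of each pair share the library and its scaling.

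**Figure D4:**
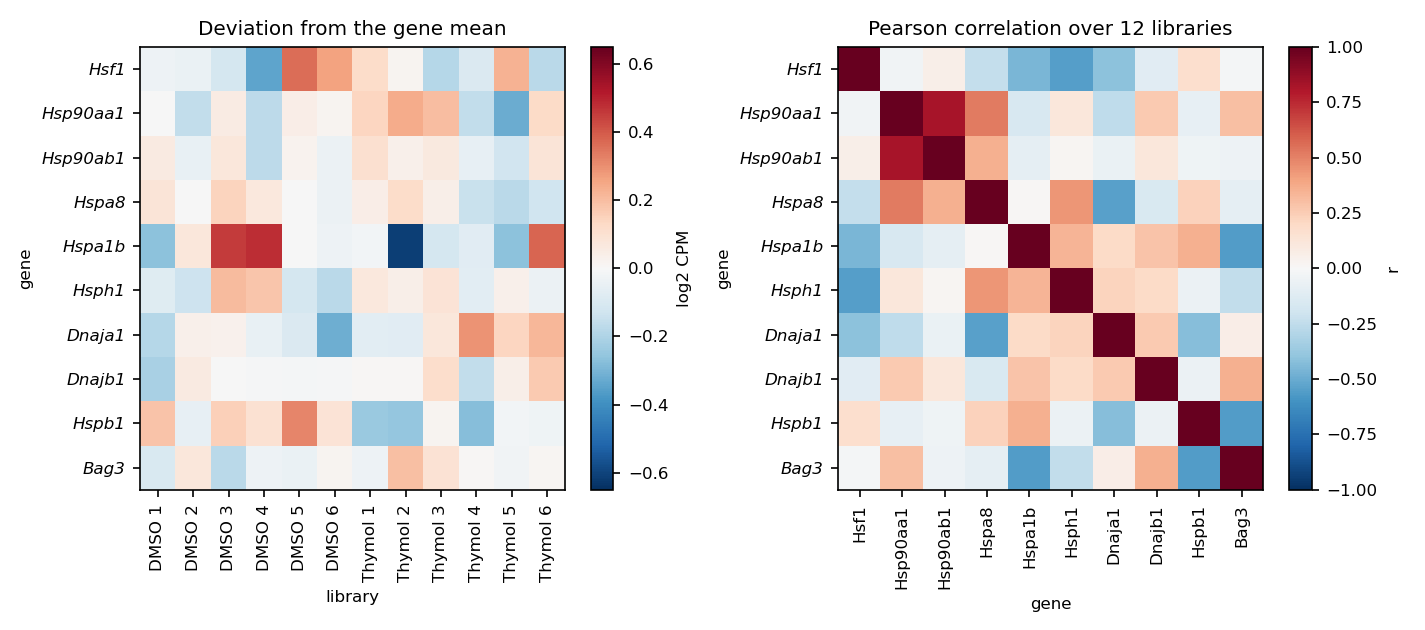
Left, level of each member in each library as the difference from the gene's mean over 12 libraries, in log2 CPM. Right, Pearson r between members over the 12 libraries, where *Hsp90aa1* and *Hsp90ab1* reach 0.824 and the other pairs scatter on both sides of 0.

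The genes whose pattern was most like the mean of the scaled members over 12 libraries, among 5385 genes with a mean above 5 log2 CPM, were *Ogfrl1* (r = 0.881), *Dph3* (0.856), *Polr1c* (0.840), *Slc25a37* (0.835) and *Mrtfa* (0.832). With each group's mean subtracted first, they were *Ogfrl1* (r = 0.887), *Adamts10* (0.878), *Fnta* (0.875), *Mpdu1* (0.865) and *Dph3* (0.861). *Ogfrl1* and *Dph3* appear in both lists. These r values are descriptions, and 0 genes of the chaperone lists were among them.

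The other genes of the pathway were read from 10 lists, of which 87 of 96 genes were in the table. In limma, 0 of the 87 were higher and 1 was lower at an adjusted p of 0.05, with 14 at an unadjusted p of 0.05. The shares were 1.15% called lower and 16.1% at an unadjusted p of 0.05, against 1.57% and 11.8% of all genes. Their log2 fold changes were positive for 48 and negative for 39, with a median of 0.01. The gene that passed was *Hspb6* (chromosome 7, 30552178 to 30555443, plus strand), a small heat shock protein of muscle and other contractile cells also known as HSP20. It is thus the second small heat shock protein gene, beside *Hspb1*, to pass as lower.

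*Hspb6* ranged from 6.64 to 7.06 log2 CPM in DMSO libraries (median 6.96) and from 6.01 to 6.84 with thymol (median 6.42). Of its thymol values, 4 of 6 lay below every DMSO value. Its log2 fold change was -0.42 ± 0.093 (SE, 95% interval -0.60 to -0.23, limma adjusted p = 0.0043). In odd-numbered libraries it was -0.24 (limma adjusted p = 0.540) and in even-numbered ones -0.59 (limma adjusted p = 0.000198), and without the mean-variance trend the adjusted p over all libraries was 0.233. It kept its call without each library in turn, with a log2 fold change between -0.49 and -0.32. *Acta1*, the one skeletal muscle marker in the table, had a log2 fold change of -0.45 (limma adjusted p = 5.0e-05), and the fibroblast markers that passed, *Col1a1* and *Col3a1*, had -0.28 and -0.54 (limma adjusted p = 2.9e-05 and 4.4e-10). The other 10 fibroblast markers did not pass. Among them were *Pdgfra* at 0.33, *Vim* at 0.08 and *Fn1* at 0.08 (limma adjusted p = 0.281, 0.579 and 0.611). Lower with thymol were *Postn* at -0.47, *Col5a1* at -0.16 and *Thy1* at -0.13, among others (limma adjusted p = 0.185, 0.0877 and 0.304). Of all 12 fibroblast markers, 4 had a positive and 8 a negative log2 fold change. Whether the level of *Hspb1* or *Hspb6* follows the same cells was not tested. The promoter of *Hspb6* holds 1 match to the 2-unit element, 120 bases before a listed start, shown for comparison with the *Hspb1* window.
Hspb6, chr7:30553170-30553199, plus strand: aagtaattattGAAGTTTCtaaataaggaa

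Among the other small heat shock proteins, 5 of 8 were in the table, 2 with a positive and 3 with a negative log2 fold change, and 1 passed. Of the HSF family and its binding protein, 2 of 5 were in the table and 0 passed. *Hsf2*, a second heat shock factor, had a log2 fold change of 0.13 (limma adjusted p = 0.783), and *Hsf3*, *Hsf4* and *Hsf5* were not listed. The other cytosolic HSP70 and HSP110 genes were 6 of 8, with 0 called, and the other J-domain genes 14 of 14, with 0 called. In the latter list the smallest p belonged to *Dnajc21*, a J-protein of ribosome assembly, at 0.21 (limma adjusted p = 0.478).

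Partners of HSP70 and HSP90 gave 0 calls as well. Of 8 HSP70 exchange factors and partners, 2 had a positive and 6 a negative log2 fold change, and *Bag1*, an exchange factor, had 0.15 (limma adjusted p = 0.307). Of 17 HSP90 co-chaperones, 11 were positive and 6 negative, and *Cdc37*, which loads kinases onto HSP90, had 0.13 (limma adjusted p = 0.298). Of 14 subunits of the TRiC chaperonin and prefoldin, 8 were positive and 6 negative, and *Pfdn1* had 0.18 (limma adjusted p = 0.276). The 5 genes of ubiquitin and aggregate handling gave a median of -0.07, with *Vcp*, a segregase of ubiquitylated proteins, at -0.08 (limma adjusted p = 0.660). Across these 4 lists, 6 genes reached an unadjusted p of 0.05, as did 11.8% of all genes.

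Chaperones of other compartments were set beside the cytosolic ones. All 8 mitochondrial chaperones had a positive log2 fold change, from 0.0024 to 0.34 with a median of 0.05, and 0 passed. *Hspd1*, the mitochondrial HSP60, had 0.16 (limma adjusted p = 0.376) and was the only gene of that list at an unadjusted p of 0.05. Of 8 chaperones of the endoplasmic reticulum, 3 were positive and 5 negative. Of these 8, 4 reached an unadjusted p of 0.05, against 11.8% of all genes. *Hsp90b1*, the HSP90 of that compartment, ranged from 10.22 to 10.36 log2 CPM with DMSO and from 10.08 to 10.21 with thymol, so that all 6 thymol values lay below all 6 DMSO values. Groups did not overlap in 1.68% of all genes. The log2 fold change of *Hsp90b1* was -0.15 ± 0.045 (SE, limma adjusted p = 0.0603). The gene passed in 5 alternatives, with limma adjusted p-values between 0.00735 and 0.0450. It passed in 0 of the 12 fits without 1 library (limma adjusted p = 0.0580 to 0.165). It also did not pass without the variance trend (limma adjusted p = 0.319). In odd- or even-numbered libraries only, it did not pass either (limma adjusted p = 0.319 and 0.551).

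**Figure D5:**
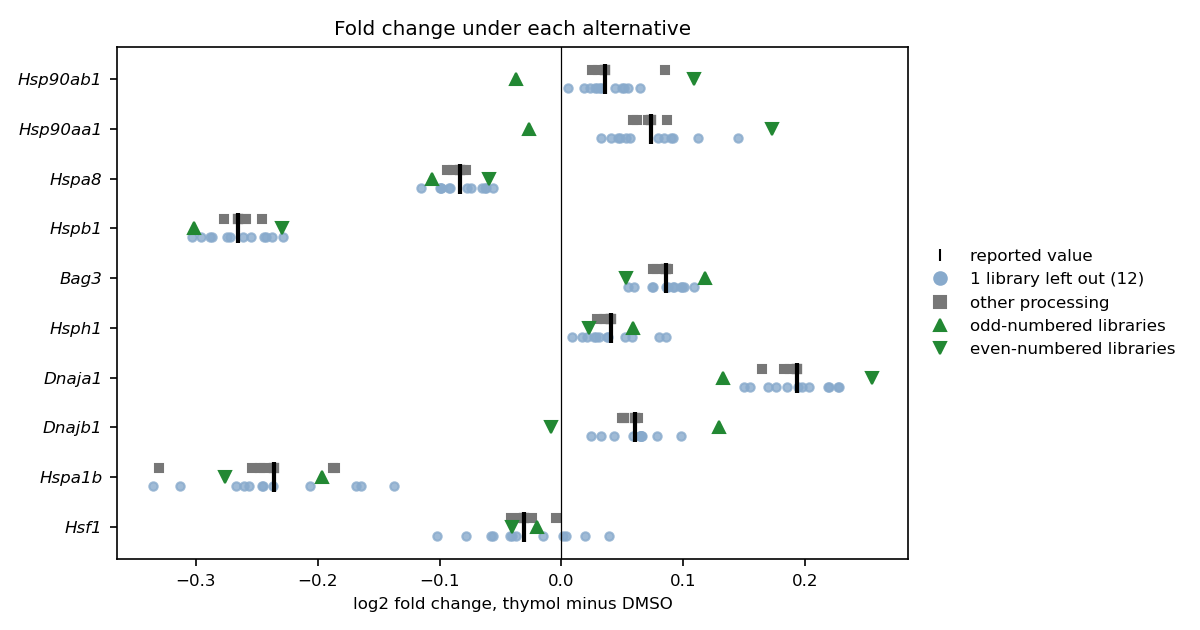
Log2 fold change of each member in the fit of all 12 libraries, in the 12 fits that each leave out 1 library, in odd- or even-numbered libraries only, and under the other processing alternatives, which for *Hspb1* stay below 0 throughout. The points of *Hsf1* fall on both sides of 0, and for *Hspa1b* the other alternatives include the sums with *Hspa1a*, at -0.33 with all libraries.

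Reads of some members could have come from near copies. Of the 65-base stretches in the last 300 bases of their transcripts, the share that also occurs in another annotated gene was 68.9% for *Hspa8* (9 genes), 51.6% for *Dnaja1* (3 genes), 33.8% for *Hsp90aa1* (2 genes) and 13.9% for *Hspb1* (1 gene), and 0 for the other 6 members. The counts of these 4 genes are uncertain to the extent that such reads were split or dropped in counting. Compared between the groups, they passed through the same counting in all 12 libraries.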

How the data were processed

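Total RNA of 12 samples of primary mouse adult fibroblasts was sequenced by QuantSeq 3′ mRNA-Seq. The authors aligned reads to GRCm38 with STAR 2.5.3, counted them per gene with HTSeq 0.6.1, filtered genes on 30 reads in 6 or more samples, and applied TMM scaling. By the recovered reads, 98.0% of the 10697 genes had 30 or more reads in 6 or more libraries. The deposited values are log2 CPM with a small prior added by the authors (1.96 reads in the mean library), which pulls the fold changes of low genes towards 0. Depth was read from the value steps: every value below 200 reads was whole to within 0.02. Counting errors cover counting only, since PCR reads without molecular identifiers are not independent molecules.

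All 10697 genes were fitted with limma 3.58.1 in R 4.3.3 (lmFit, eBayes with trend, 2 groups, no covariate), two-sided, with Benjamini-Hochberg adjustment over all genes and a threshold of 0.05. Correlations used permutations in scipy 1.17.1. The members and lists were chosen with earlier results of these data known, as was the division into odd- and even-numbered libraries, which the labels do not call batches. All 10 members are named, together with every gene of each other list under the threshold or, failing that, the one with the smallest p. Marker genes with values were chosen after these were seen. Gene coordinates are those of GENCODE vM21 (GRCm38).

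Alternatives were 10 CPM added before the logarithm, genes with a mean above 4 only, no variance trend, voom on recovered reads, quantile normalization, median centring, the replicate number as a block, an odd or even term, and leaving out each library.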

Additional observations from a re-analysis of the deposited data

Results flagged for a closer look

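In 62 groups of 6 libraries, 7 held a library whose gap to its nearest neighbour exceeded the critical share of the range in Dixon's test at 95%, where chance gives about 3.1. Among the genes these were *Dnajb1* in DMSO replicate 1, at 5.58 log2 CPM with the next value at 5.78, *Hspa1a* in DMSO replicate 3, at 5.39 with the next value at 3.71, and *Vcp* in DMSO replicate 4, at 8.17 with the next value at 8.35. *Hsp90ab1* gave 73.6% of the reads of the 10 members in DMSO replicate 4, and 75.6% in the next library. The summed macrophage markers stood apart in DMSO replicate 1, at 20919 CPM against 19467, and in thymol replicate 1, at 22853 CPM against 20278. Thymol replicate 5 had 9049796 recovered reads, and the next deepest thymol library 6585162. The causes were not tested.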

How the results depend on the processing

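The number of genes past the threshold was 57 without the mean-variance trend and 70 in odd-numbered libraries only, against 238, and between 172 and 270 when 1 library was left out, the ends being the fits lacking thymol replicates 6 and 1. The members past it numbered 0 without the trend and in odd- or even-numbered libraries alone, and 0 to 1 when 1 library was left out. Of the other pathway genes, 0 passed without the trend and in odd-numbered libraries, and 2 (*Hspb6* and *Hsp90b1*) passed with voom, quantile normalization, median centring, the replicate block and the odd or even term. It was 1 in every fit without 1 library. Signs turned for *Hsp90aa1* (-0.027), *Hsp90ab1* (-0.037) and *Hsf2* (-0.042) in odd-numbered libraries and for *Dnajb1* (-0.0084) in even-numbered ones, and *Hsf1* ranged from -0.10 to 0.039 when 1 library was left out. None of these was called. The causes were not tested.

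For the members, 96 of 102 values under the alternatives other than leaving out a library kept their direction and side of the threshold, 3 lost the call (all *Hspb1*) and 3 turned sign. Of 120 with 1 library left out, 110 kept both, 6 lost the call and 4 turned sign. These counts are not a measure of robustness. The fold change cannot move without the variance trend, with the filter on mean level, the replicate block, or the odd or even term. Members without a call in the fit of all libraries had no call to lose. The numbers 1 to 6 were not taken to pair the libraries: same-numbered libraries correlated in their deviations from the group means at -0.051 to 0.27 over 5394 genes, and the libraries of replicates 3 and 4 alone correlated best with their own number. With the replicate number as a block, 332 genes passed, with 1 member and 2 other pathway genes. Genes with few reads, such as *Hspa1a*, are the ones that depth limits most.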
